A study of Mus musculus with 12 samples.

Results

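Histone genes were examined for chromatin accessibility in murine ER-Hoxa9-Lys-GFP cells. The members were the 67 GRCm38 protein-coding genes, of 21900 in the gene table, whose symbols start with H1f, H2ac, H2bc, H3c or H4c followed by a digit. They comprised 10 linker histone H1 genes, 17 H2A, 16 H2B, 12 H3 and 12 H4 genes. Regions were the merged peaks of all lists, and 31 of 16028 regions had a member as their overlapping or nearest protein-coding gene within 50000 bases. The name clustered histone genes fits 63 of the 67. Of the others, H1f0 and H1f7 lie apart on chromosome 15, and H1f8 and H1f10 lie apart on chromosome 6, and none of these 4 had a region.

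The cells are C57BL/6 myeloid progenitors in culture with stem cell factor, held immature by a Hoxa9 protein fused to an estrogen receptor (ER) for as long as estradiol (E2) is present. They carry a GFP reporter of lysozyme, and every group carries the fusion and the reporter. ATAC-seq, which marks open DNA by transposase insertion, gave 12 libraries in 6 groups of 2, with 1 peak list for each group. The groups were untreated cells in continuous E2, cells without E2 for 24 h and then with E2 for 96 h, for 40 h and then 80 h, for 56 h and then 64 h, and for 72 h and then 48 h, and cells without E2 for 120 h. A longer withdrawal thus always came with a shorter add-back. Per the labels, nuclei were split between transposition reactions, so the libraries of a group may share nuclei. A list holds the position of each peak and no score, count or depth, so there was no spread between libraries, no test of a difference between groups, and intervals cover counting error over regions only. In a bulk sample, fewer cells with an open region and less opening per cell cannot be told apart.

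Histone genes encode the proteins that wrap DNA into nucleosomes (H2A, H2B, H3 and H4) and the linker histones that bind between nucleosomes (H1). Most lie in dense gene clusters, where H2A and H2B genes often face away from each other across a shared promoter. These replication-dependent genes are transcribed mainly in S phase, when new DNA needs new nucleosomes, and their mRNAs end in a stem-loop instead of a poly(A) tail. H1f0, in contrast, is a linker histone that accumulates in many cells as they stop dividing. Most H2A, H2B, H3 and H4 members are near-identical within their class in coding sequence, and how reads that fit several copies were handled is not given in the sources used here.

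To show the promoters at which regions were gained, lost and kept, the sequences before the starts of 7 members are given first, as 5′ to 3′ RefSeq sequence of GRCm38.p6 ending at the base before the start. Those of H1f4, H2bc6, H3c13, H2bc18 and H2bc9 belong to the widest lost, gained and kept regions described below. H1f2 and H2bc11 were added after their values were seen. H2bc6 has 2 annotated starts, and both are shown, the downstream one, in the narrowest gained region, as an exception to this choice. The regions cover each start but not always the whole sequence before it. Capitals mark matches, on either strand, to the TATA box TATAAA, the CCAAT box, the octamer ATTTGCAT, the E2F-type motif GCGCGAAA and the H1 box AAACACA, of which none contains another.
H1f4, chr13:23622559-23622758, minus strand, start in a lost region: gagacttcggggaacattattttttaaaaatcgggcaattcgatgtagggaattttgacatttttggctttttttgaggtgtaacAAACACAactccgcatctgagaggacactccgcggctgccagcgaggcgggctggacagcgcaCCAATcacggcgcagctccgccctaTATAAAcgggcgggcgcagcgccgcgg
H1f2, chr13:23738607-23738806, plus strand, start in a lost region: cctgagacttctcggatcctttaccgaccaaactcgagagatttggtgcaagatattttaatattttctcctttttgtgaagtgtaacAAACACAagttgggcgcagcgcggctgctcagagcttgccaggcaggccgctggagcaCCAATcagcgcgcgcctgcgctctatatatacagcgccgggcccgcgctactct
H2bc6, upstream start, chr13:23621095-23621294, minus strand, start in a lost region: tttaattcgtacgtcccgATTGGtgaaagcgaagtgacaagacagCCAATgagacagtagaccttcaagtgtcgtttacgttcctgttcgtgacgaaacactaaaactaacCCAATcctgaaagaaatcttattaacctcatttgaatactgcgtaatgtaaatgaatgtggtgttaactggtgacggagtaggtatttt
H2bc6, downstream start, chr13:23585971-23586170, minus strand, start in a gained region: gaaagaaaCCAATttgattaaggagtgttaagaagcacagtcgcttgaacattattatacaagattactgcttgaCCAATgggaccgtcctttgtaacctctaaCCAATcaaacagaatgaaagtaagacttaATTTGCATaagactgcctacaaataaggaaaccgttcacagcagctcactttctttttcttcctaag
H3c13, chr3:96268454-96268653, plus strand, start in a gained region: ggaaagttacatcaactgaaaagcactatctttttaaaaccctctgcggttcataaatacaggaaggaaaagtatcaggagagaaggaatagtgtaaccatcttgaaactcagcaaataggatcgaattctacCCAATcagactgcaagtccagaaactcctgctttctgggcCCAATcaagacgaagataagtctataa
H2bc18, chr3:96269500-96269699, plus strand, start in a gained region: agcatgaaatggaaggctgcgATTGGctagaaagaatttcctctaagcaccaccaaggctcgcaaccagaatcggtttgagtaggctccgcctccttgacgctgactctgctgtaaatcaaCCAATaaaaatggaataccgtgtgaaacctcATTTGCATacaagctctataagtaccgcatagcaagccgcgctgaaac
H2bc11, chr13:22042998-22043197, plus strand, start in a gained region: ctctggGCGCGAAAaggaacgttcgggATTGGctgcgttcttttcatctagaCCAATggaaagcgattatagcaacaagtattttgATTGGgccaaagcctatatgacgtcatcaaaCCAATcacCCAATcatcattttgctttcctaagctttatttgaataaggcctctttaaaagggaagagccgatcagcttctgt
H2bc9, chr13:23543445-23543644, minus strand, start in a kept region: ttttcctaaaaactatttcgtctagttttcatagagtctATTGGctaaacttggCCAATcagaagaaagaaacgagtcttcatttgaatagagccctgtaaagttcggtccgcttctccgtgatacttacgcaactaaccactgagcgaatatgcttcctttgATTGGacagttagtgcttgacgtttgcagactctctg

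The linker histone promoters of H1f4 and H1f2 each held the H1 box, 115 and 112 bases before the start, and CCAAT, 52 and 54 bases before it. H1f4 also held TATAAA 27 bases before its start. The lost region of H1f4 ends at chr13:23622586, and that of H1f2 begins at chr13:23738737. Both H1 boxes and the CCAAT of H1f4 lie outside these regions. The octamer stood 48 bases before the start of H2bc18 and 67 bases before the downstream start of H2bc6. H2bc11 held 5 CCAAT matches, 2 of them on the opposite strand, and GCGCGAAA 194 bases before its start, and lies next to H2ac11.

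Over whole promoters of 300 bases, the table held 62 of the 67 members. CCAAT was found in 82.3% of them, against 42.3% of all 17492 protein-coding genes in the table, and TATAAA in 54.8% against 14.8%. The octamer was found in 21% of members, all of them H2A (6 of 17) or H2B genes (7 of 14), against 1.9% of all genes. The E2F-type motif was also found in H2A (5 of 17) and H2B genes (4 of 14) and in no other class, 14.5% of members against 0.526% of all genes. The H1 box was found in 5 of 10 H1 genes, 2 of 17 H2A genes and 2 of 14 H2B genes, 14.5% of members against 7.17% of all genes. CCAAT was in every H2A, H2B and H3 promoter of the table but in only 3 of 11 H4 promoters. Of the starts that lay in gained regions, 6 of 14 held the E2F-type motif and 6 of 14 the octamer, against 0 of 8 and 1 of 8 in lost regions, 2 of 10 for each in kept regions, and 1 of 27 and 3 of 27 for starts in no histone region. The E2F-type motif and the octamer were found in H2A and H2B promoters only, and gained regions lay mostly at those genes, so region and gene class cannot be told apart in these counts. TATAAA went the other way, at 5 of 14 starts in gained regions, 5 of 8 in lost, 7 of 10 in kept and 15 of 27 in none. For the H1 box these counts were 1 of 14, 2 of 8, 0 of 10 and 6 of 27. For CCAAT they were 14 of 14, 7 of 8, 10 of 10 and 19 of 27. H2A and H2B genes that face away from each other across a shared promoter share part of these letters, so their matches are not independent. A match is a description of letters, not of binding.

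Of the 31 regions, 27 overlapped a member and 1, at H1f5, lay 34 bases from it. The remaining 3 were farther away, at 4496 bases from H2bc13, 5668 from H2ac12 and 6375 from H2bc11. A shared region was common, since 14 of the 31 overlapped 2 members. Among these, 9 spanned 1 H2A and 1 H2B gene. In all, 41 members had a region and 26 had none. Some members without a region of their own lay close to one, with H2ac21 at 149, H3c10 at 390, H2ac10 at 664 and H1f1 at 975 bases from a region that a neighbouring histone gene took. No region lay within 10000 bases of 8 members, which were H1f0, H1f7, H1f8, H1f10, H4c18, H2ac24 and the testis histone genes H2bc1 and H2ac1. For H1f0 the nearest region, called in all 6 lists, lay 32035 bases away and was assigned to Ankrd54.

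By any overlap with a peak, histone regions were called least often in continuous E2, the list with the most peaks. In continuous E2, 15 of 31 were called (48.4%, 95% Wilson interval 32 to 65.2), against 82.6% of all 14813 regions with a gene within reach. After 24 h without E2 and add-back, 21 histone regions were called (67.7%, 50.1 to 81.4), against 72.5% of all regions. After 40 h there were 20 (64.5%, 46.9 to 78.9), against 63.6%. These were the shares in the lists with the 3 highest peak numbers.
After 56 h, 22 histone regions were called (71%, 53.4 to 83.9), against 57.8% of all regions. After 72 h there were 25 (80.6%, 63.7 to 90.8), against 61.6%. At 120 h there were 18 (58.1%, 40.8 to 73.6), against 51.4%. The histone share was thus highest after 72 h and lowest in continuous E2, where the share of all regions was highest. This order depended on how a call was made. With peaks required to cover at least 50% of a region, 12 histone regions were called at 120 h, against 15 in continuous E2, and 120 h was the lowest list. Without peaks under 400 bases, 14 were called at 120 h and 14 in continuous E2. Shares of all regions under these stricter calls were not computed. Peaks of all regions near genes had median widths of 853 bases in continuous E2 and 589 at 120 h. By any overlap, the share of all regions lay outside the histone interval in continuous E2 and after 72 h and inside it in the other 4 lists. Neighbouring genes share regions and sequence, so the intervals are too narrow to the extent that regions move together.

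**Figure D1:**
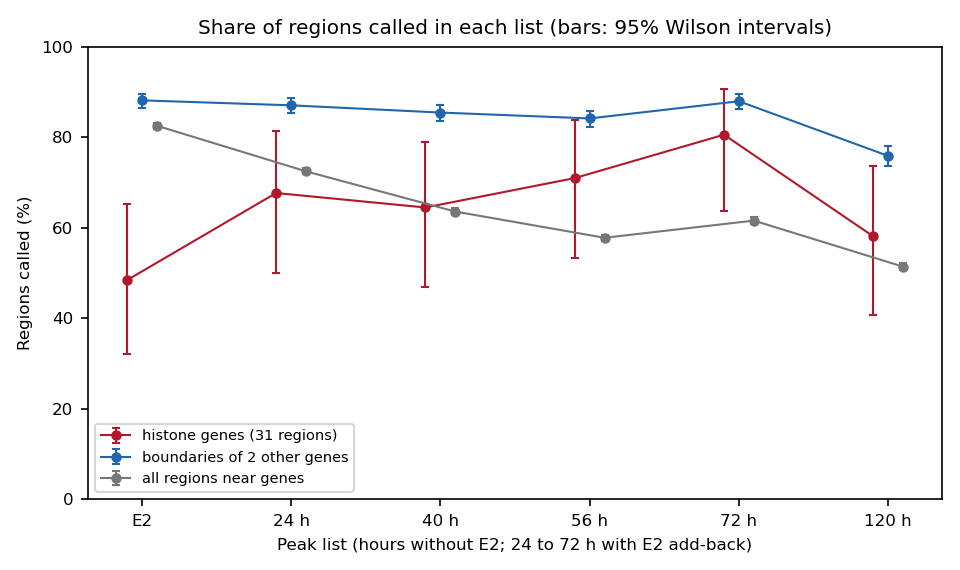
Share of regions called in each peak list, in percent, for the 31 histone regions, for 1511 regions at boundaries of 2 or more other genes and for all 14813 regions near genes. Bars are 95% Wilson intervals over regions, and the histone share goes from 48.4% in continuous E2 to 80.6% after 72 h and 58.1% at 120 h.

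Other crowded gene boundaries were called often in continuous E2. At 1511 regions with the start or end of 2 or more other protein-coding genes within 1000 bases, 88.2% were called in continuous E2 (86.5 to 89.7), 88% after 72 h and 75.9% at 120 h. Annotated starts gave a similar order. Peaks covered the start of 18 of 62 histone genes in continuous E2 (29%, 19.2 to 41.3), 26 after 24 h, 26 after 40 h, 28 after 56 h, 32 after 72 h (51.6%, 39.4 to 63.6) and 23 at 120 h (37.1%). For the 17430 other protein-coding genes the shares were 37.3% in continuous E2, 36.5%, 35%, 34% and 35.2% after 24, 40, 56 and 72 h and 29.6% at 120 h. The share of other genes lay below the histone interval after 72 h and inside it in the other 5 lists.

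**Figure D2:**
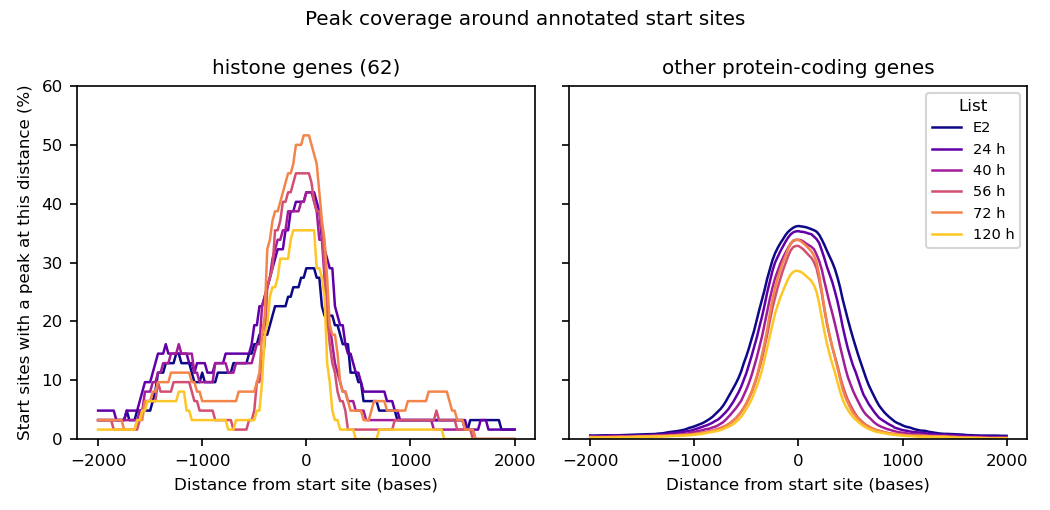
Share of annotated start sites, in percent, that have a peak at each distance from the start in bases, for 62 histone genes on the left and 17430 other protein-coding genes on the right, with 1 line per list and the first listed start of each gene. For histone genes continuous E2 is the lowest line at the start, at 29%, and 72 h the highest, at 51.6%, while for other genes continuous E2 is the highest, at 36.2%.

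Comparing 120 h with continuous E2, a region is termed gained if called at 120 h alone of these lists, lost if called in continuous E2 alone of them, and kept if called in both. Of the 31 histone regions, 10 were gained (32.3%, 18.6 to 49.9), against 9.04% of all regions. Another 7 were lost (22.6%, 11.4 to 39.8), against 40.2% of all regions, and 8 were kept (25.8%, 13.7 to 43.2), against 42.4%. The lost share and the gained share of all regions lay outside the histone intervals, and the kept share inside. The other 6 (19.4%, 9.19 to 36.3) were called in neither end point but in at least 1 add-back list. Of all regions 8.4% were in neither end point, a share below that interval. At boundaries of 2 or more other genes, 6.95% of regions were gained, 19.3% lost, 69% kept and 4.83% in neither. With each list reduced to the same number of its widest peaks, 15 histone regions were gained, 5 lost and 3 kept, and 8 were called in continuous E2. With peaks required to cover at least 50% of a region the order of gained and lost turned, with 7 gained and 10 lost, and without peaks under 400 bases 8 were gained and 8 lost. With each end point made of a pair of lists (continuous E2 and 24 h, 72 and 120 h), 1 was gained and 1 lost. Most gained regions were already called after 24 h, and most lost regions were absent after 24 h or still called after 72 h. The shares of all regions were not computed for any of these alternatives.

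The H2B genes accounted for most gained regions, and 17 of the 31 histone regions lay at them. Over all 14813 regions near genes, 9.04% were gained, 40.2% lost and 42.4% kept. Of 17 regions at H2B genes, 9 were gained, 3 lost and 3 kept, and of 12 at H2A genes 5 were gained, 2 lost and 4 kept. The 5 gained H2A regions were all shared with an H2B gene. Of the 9 regions spanning an H2A and an H2B gene, 3 were called in continuous E2, then 6, 7, 8 and 9 after 24, 40, 56 and 72 h, and 7 at 120 h. The shares of all regions in the same order were 82.6%, 72.5%, 63.6%, 57.8%, 61.6% and 51.4%.

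At H2ac11 and H2bc11 the shared region (chr13:22042698-22043736), which holds the H2bc11 sequence above, had no peak in continuous E2. Its peak was 1039 bases wide after 24 h, then 609, 666 and 608 bases after 40, 56 and 72 h, and 618 at 120 h. The region at H2bc13 and H2ac13 behaved alike, with no peak in continuous E2 and widths of 1205, 812, 568, 556 and 817 bases in the other lists. Those lists thus agreed on the presence of both regions, and the peaks were widest after 24 h.
At H2ac6 and H2bc4 the widths were 1257, 1174, 672, 691 and 631 bases after 24, 40, 56, 72 and 120 h, again with no peak in continuous E2. At H2ac22 and H2bc22 they were 801, 669, 563, 586 and 605 bases, and at H2bc14 they were 781, 736, 587, 732 and 581 bases. The shared region of H2ac12 and H2bc12 was called from 40 h on, with 693, 676, 690 and 674 bases. None of these regions was called in continuous E2.

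Regions absent from continuous E2 and called in all 5 other lists numbered 7 of 31 (22.6%, 11.4 to 39.8), against 2.07% of all regions and 2.91% of regions at boundaries of 2 or more other genes. Besides the 5 regions with this pattern named above, they were the region of H4c3, with widths of 677, 876, 606, 625 and 370 bases, and the one 6375 bases from H2bc11, with 1374, 861, 690, 795 and 477 bases. After 24 h the 7 peaks had a median width of 1039 bases (677 to 1374). In that list the median was 781 bases over all peaks near genes and 874.5 at boundaries of 2 or more other genes. At 120 h the 3 medians were closer, at 605, 589 and 652 bases in the same order. Between neighbouring lists, 11 histone regions were called after 24 h and not in continuous E2 (35.5%), against 7.53% of all regions. Over all histone regions and all lists that lacked them, the nearest peak of that list was at least 3226 bases away.

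The other 3 gained regions differed in pattern. The region of H3c13 and H2bc18 on chromosome 3 (chr3:96268490-96270203), the widest gained region, was 1714 bases wide after 24 h, not called after 40 h, and 664, 726 and 622 bases wide after 56, 72 and 120 h. That of H2ac12 and H2bc12 was first called after 40 h. The region at the downstream start of H2bc6 (chr13:23585889-23586099) was called at 120 h alone, with 211 bases, the narrowest histone peak of any list. It lies inside the long annotated span of H2bc6, more than 1000 bases from the gene's ends, but over an annotated start whose promoter holds the octamer and 3 CCAAT matches.

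**Figure D3:**
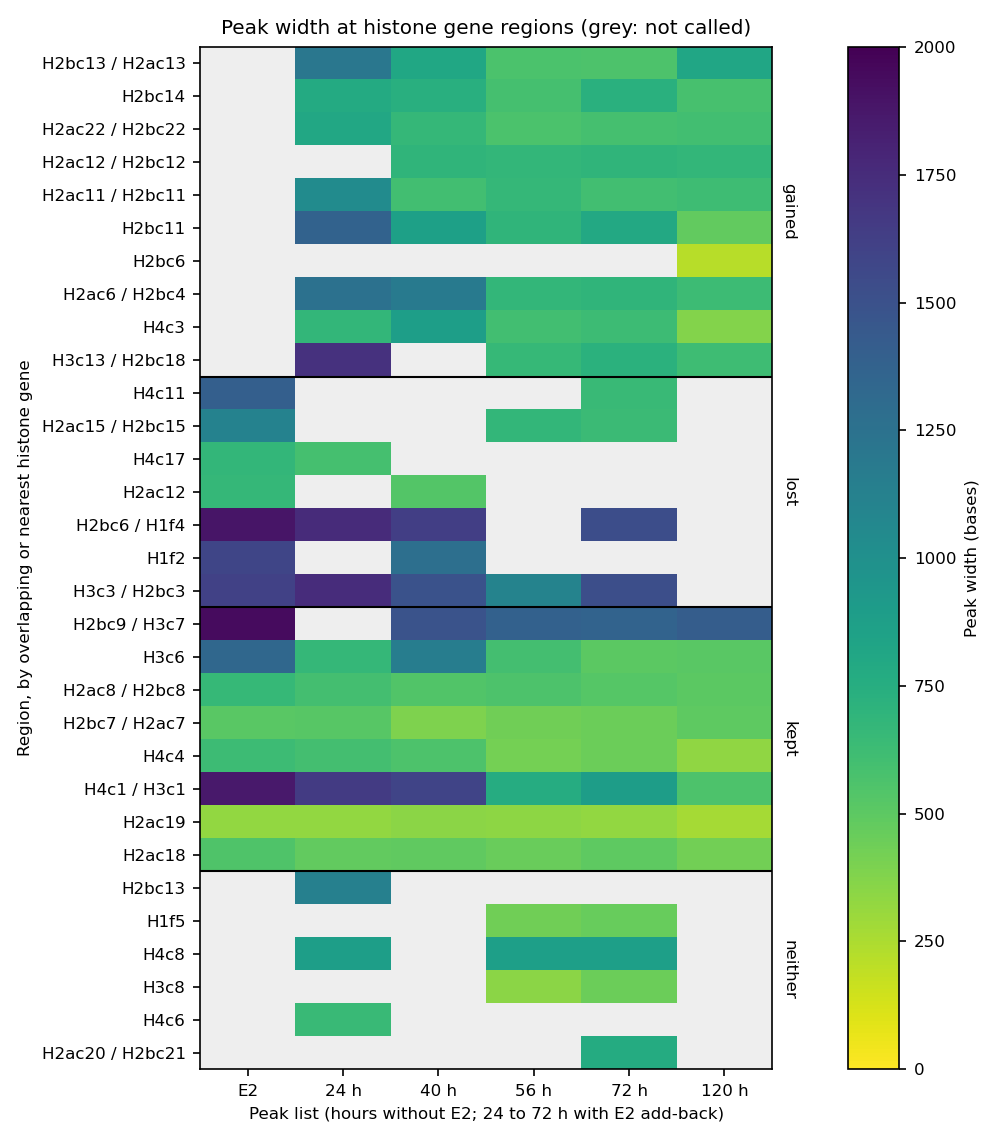
Peak width in bases (colour) of the 31 histone regions, 1 per row, in the 6 peak lists, with grey where no peak was called. Rows are grouped as gained, lost, kept or neither by 120 h against continuous E2, and 7 of the 10 gained rows are filled in every column but continuous E2.

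None of the 3 regions at linker histone genes was called at 120 h, a list that held 51.4% of all regions near genes. A count of 0 of 3 sets no useful limit. The region of H1f4, which it shared with the upstream start of H2bc6 (chr13:23620691-23622586, the widest lost region), was 1883 bases wide in continuous E2, 1754 after 24 h, 1632 after 40 h and 1531 after 72 h, and was not called after 56 h or at 120 h. The region of H1f2 was called in continuous E2 with 1583 bases and after 40 h with 1271 bases, and in no other list. That of H1f5 was called after 56 and 72 h alone, with 430 and 468 bases. H1f1, H1f3 and the testis gene H1f6 had no assigned region.

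The remaining lost regions lay at H4, H2A, H2B and H3 genes. H4c11 had a peak of 1397 bases in continuous E2 and one of 644 bases after 72 h. The region of H2ac15 and H2bc15 was 1116 bases wide in continuous E2 and was called again after 56 and 72 h, with 675 and 638 bases. H3c3 and H2bc3 shared a region of 1611, 1749, 1499, 1103 and 1516 bases in continuous E2 and after 24, 40, 56 and 72 h, absent at 120 h alone. H4c17 was called in continuous E2 and after 24 h, with 679 and 590 bases, and the region 5668 bases from H2ac12 in continuous E2 and after 40 h, with 665 and 533. Only the regions of H4c17 and of H3c3 and H2bc3 were lost with 1 change along the order of withdrawal, 2 of 7, against 83.5% of all lost regions. Of the gained histone regions 9 of 10 had 1 change, against 86.3% of all gained regions.

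Calls switched back and forth at several histone regions. With 3 or more changes along the 6 lists there were 7 of 31 (22.6%, 11.4 to 39.8), against 9.82% of all regions. They were the regions of H4c11, of H2ac15 and H2bc15, of H2bc6 and H1f4, of H1f2, of H3c13 and H2bc18 and of H4c8, and the distant one of H2ac12. H4c8 was called after 24, 56 and 72 h, with 880, 872 and 872 bases.

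The regions called in neither end point also included H3c8, with 351 bases after 56 h and 450 after 72 h, and H4c6, with 641 bases after 24 h alone. The region of H2ac20 and H2bc21 was called after 72 h alone, with 772 bases, and the one 4496 bases from H2bc13 after 24 h alone, with 1132 bases.

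Histone regions called in every list numbered 7 of 31 (22.6%), against 34.5% of all regions and 59.8% at boundaries of 2 or more other genes. The widest was that of the neighbours H4c1 and H3c1, with 1864, 1655, 1586, 765, 885 and 560 bases in the order of continuous E2 and 24, 40, 56, 72 and 120 h. H3c6 had 1332, 668, 1150, 599, 506 and 511 bases. Both were widest in continuous E2 and under 600 bases at 120 h.
The shared regions of H2ac8 and H2bc8 and of H2bc7 and H2ac7 were steadier, with 660, 601, 542, 560, 527 and 506 bases and with 514, 521, 389, 434, 451 and 493 bases. H4c4 had 625, 597, 555, 417, 449 and 331 bases. On chromosome 3, H2ac18 had 554, 481, 488, 454, 494 and 428 bases and H2ac19 had 328, 324, 350, 336, 322 and 270 bases. All 7 peaks were narrower at 120 h than in continuous E2, as were 97.7% of the 5106 regions near genes called in every list. The median of the 7 was 493 bases at 120 h and 625 in continuous E2, against 615 and 940 bases over the 5106 regions. The eighth kept region, at H2bc9 and H3c7 (chr13:23542767-23544711), had the widest histone peak of all, 1945 bases in continuous E2. It was absent after 24 h and had 1487, 1378, 1367 and 1413 bases after 40, 56, 72 and 120 h.

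The 63 clustered members fell into 3 blocks, groups of genes with gaps of at most 1000000 bases, and the kept regions lay in 2 of them. The first block on chromosome 13 (chr13:21715711-22043658, 22 genes) had 12 regions, of which 6 were gained, 4 lost, 0 kept and 2 in neither end point. The second block on that chromosome (chr13:23531044-23934913, 31 genes) had 15 regions, of which 3 were gained, 3 lost and 6 kept. The block on chromosome 3 (chr3:96219885-96270192, 10 genes) had 4 regions, 1 gained, 0 lost and 2 kept. Over all 14813 regions near genes, 9.04% were gained, 40.2% lost and 42.4% kept. The first block's 0 kept of 12 regions allows a kept share of up to 25%, and 0 lost of 4 on chromosome 3 sets no useful limit. In continuous E2, 4 of 12, 9 of 15 and 2 of 4 regions were called in the 3 blocks, and after 72 h 9, 12 and 4. Of all regions, 82.6% were called in continuous E2 and 61.6% after 72 h.

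**Figure D4:**
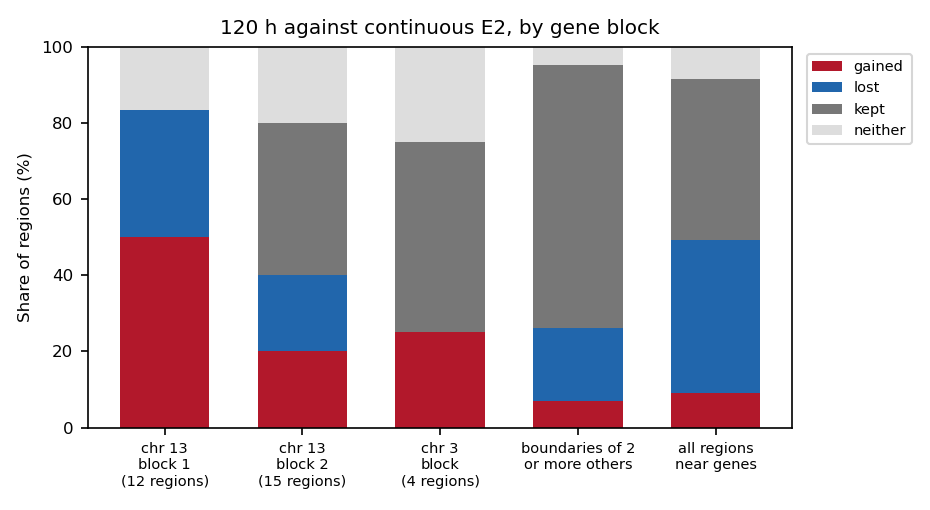
Share of regions, in percent, that were gained, lost, kept or in neither list, for 120 h against continuous E2, in the 3 blocks of histone genes, at 1511 regions at boundaries of 2 or more other genes and over all 14813 regions near genes. The first chromosome 13 block has no kept region among 12, while 69% of the regions at boundaries of 2 or more other genes are kept.

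Genes outside the member rule had 10 regions inside these blocks, at Zfp184, Prss16, Pom121l2, Hfe, Slc17a2, Slc17a4 and H4bc24. The last of these has a histone-like symbol that the member rule does not take. Of the regions, 7 were lost, 1 was gained, at Hfe, 1 was kept, at Prss16, and 1, at H4bc24, was in neither end point. At 120 h, 2 of the 10 were called, against 8 in continuous E2. Over all 14813 regions near genes, 51.4% were called at 120 h and 82.6% in continuous E2. Lost regions made up 40.2% of these, gained 9.04% and kept 42.4%. By the same rule of any overlap 18 of 31 histone regions were called at 120 h, against 15 in continuous E2, an order that did not hold under the stricter calls given above.

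With the list of 24 h in place of continuous E2, an alternative chosen after seeing the data, 3 histone regions were called at 120 h and not after 24 h (9.68%), against 9.06% of all regions. Another 6 were called after 24 h and not at 120 h (19.4%), against 30.2% of all regions, and 15 were called in both. The gained count of 10 against continuous E2 was thus 3 against 24 h, a share near that of all regions.

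Genes that act in making or handling histones had 1 gained, 6 lost and 15 kept regions of 22. Over all 14813 regions near genes, 9.04% were gained, 40.2% lost and 42.4% kept. Over 7920 regions at boundaries of genes outside the histone set, 6.69% were gained, 25.7% lost and 61.3% kept. Most regions were thus kept at boundaries too, though the regions of the listed genes were not limited to boundaries. Of 20 genes listed, 1 was left out because its symbol was misspelt in the list, and 18 of the other 19 had a region. Npat and Casp8ap2, which act in the nuclear body where histone genes are transcribed, Hinfp, a factor of H4 genes, and Slbp, which binds the histone mRNA stem-loop, each had 1 region that was called in all 6 lists. Lsm10, a part of the U7 particle that cuts histone mRNA, had the 1 gained region, absent from continuous E2 alone. The nucleosome assembly factor gene Chaf1a and the H1 and H3 chaperone gene Nasp were called in every list but that of 120 h. Lost regions also lay at Lsm11, Cpsf2 and Eri1, each of which also had a kept one. Pou2f1, which encodes a factor that binds the octamer, had 1 region, called in all 6 lists. The genes named here with kept regions alone were chosen after their values were seen, as were such genes of the next list.

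Genes listed as replacement histones, most of which are expressed outside S phase as well, had 1 gained, 3 lost and 6 kept regions. These lay at 9 of 12 matched genes of 13 listed. Over all 14813 regions near genes, 9.04% were gained, 40.2% lost and 42.4% kept. At boundaries of genes outside the histone set, 61.3% were kept. The regions of the listed genes were not limited to boundaries, and those of Macroh2a1 and H3f3b lay at none. H2az1, H2az2, H2ax and the centromere histone gene Cenpa were called in all 6 lists. H3f3a had 1 kept region and 1 called at 120 h alone. Lost regions lay at Macroh2a1, H3f3b and H4f16, the last of these called in every list but that of 120 h. H4f16 carries an H4 symbol outside the member rule, and that it is a replacement gene is not shown here.

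Of 10 myeloid marker genes 9 had a region and of 7 genes of other lineages 0 did, while Elane, a neutrophil elastase gene, had none. The share of all protein-coding genes with a region was not counted. Over the 10 myeloid genes there were 4 gained, 13 lost and 2 kept regions and 1 in neither end point, of 20. Over all 14813 regions near genes, 9.04% were gained, 40.2% lost, 42.4% kept and 8.4% in neither. The progenitor receptor gene Kit, the myeloperoxidase gene Mpo and the transcription factor gene Cebpe each had 1 region, which was lost. Cd34 had 4 lost and 1 kept region, Flt3 had 1 gained and 4 lost, Spi1 had 1 lost and 1 kept, and Cebpa had 1 gained and 1 lost. Csf3r, the granulocyte growth factor receptor gene, had 2 gained regions, and the integrin gene Itgam had 1 in neither end point. The lists held 13165, 11465, 9940, 8989, 9581 and 7987 peaks from continuous E2 to 120 h, so list length moved with withdrawal. With lists of equal length, 18 histone regions were called at 120 h, against 8 in continuous E2, whereas calls by 50% coverage gave 12 at 120 h, against 15 in continuous E2. Shares of all regions under either alternative were not computed. Repeated rows lay on no chromosome of a histone region, with 0 duplicates on chromosomes 3 and 13 in each list.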

How the data were processed

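The authors deposited 1 peak list for each group of 2 libraries, as chromosome, start and end per row with no further column. The submitters' processing notes name BWA, MACS2 2.0, STAR 2.5 and the build mm9 without roles, and how the libraries of a group were combined is not given in the sources used here. Coordinates were tested against GRCm38 genes: a GRCm38 gene boundary was at most 1000 bases from 52.4% to 69.6% of peaks per list, and from 9.53% to 10.1% once peaks were moved by 20000 bases, so GRCm38 was used.

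Exact duplicates and intervals over 10000 bases were dropped, overlapping rows merged, and the 6 lists merged into regions by an overlap of 1 base or more. A region belongs to each protein-coding gene it overlaps, or else to the gene with the nearest start or end within 50000 bases. Shares have 95% Wilson intervals. Depth is not given in the sources used here. No test between groups was possible.

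The members, gene lists and alternatives were chosen with earlier results of these data known. Every region of a member is named, sequences are shown for members at the widest lost, gained and kept region, and genes of the other lists are named for a lost or gained region, with exceptions given where they occur. Planned and added alternatives are described in the closing section. Merging, presence, assignment and distance functions were tested on simulated data. Computation used pandas 2.3.3, numpy 2.4.6, Python 3.11.15 and scipy 1.17.1, with figures from matplotlib 3.10.9.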

Additional observations from a re-analysis of the deposited data

How the results depend on the processing

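No paired analysis was possible because the libraries of a group are joined in 1 list, which also prevented leaving any of them out. Of 116 values under 12 alternatives, 108 stayed within 1.5 times the reported value, and 6 alternatives left every value as it was. Most of these 6 had little to act on, so their values say little about stability. The farthest histone region lay 6375 bases from its gene, and no histone region had a gene outside the member set. The linker histone genes lying apart had no region, and no exact duplicate lay on a chromosome of a histone region. The limit of 1.5 also passed the turn from 10 gained and 7 lost to 7 gained and 10 lost under 50% coverage. With a region called only where peaks cover at least 50% of it, 5 histone regions were kept and 4 were absent from continuous E2 alone, and 2 orders turned, with 7 gained and 10 lost, and 12 called at 120 h against 15 in continuous E2. Without peaks under 400 bases these were even, with 8 gained and 8 lost, and 14 called in each of these lists. The cause was not tested. Except with the 24 h list in place of continuous E2, the shares of all regions under the alternatives were not computed. With equally long lists of the widest peaks, 3 were kept and 8 were called in continuous E2, with 18 at 120 h. With end points of 2 lists each, 1 was gained and 1 lost. With the 24 h list in place of continuous E2, chosen after seeing the data, 3 were gained and 15 kept. The gained count thus rests on the continuous E2 list and on calls by any overlap, while 6 regions were lost against 24 h. The depth of the lists is unknown, and an uncalled region may lie under the peak caller's threshold. How reads shared by near-identical histone genes were placed is not given in the sources used here, and its part in the calls was not tested.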
